A study of Homo sapiens with 47 samples.

Results

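The 10 genes described here, PLEC, MYH9, MYH14, CEP250, CEP131, FYCO1, NUMA1, PCNT, RRBP1 and GOLGA2, were selected on the number of sites each holds in the list of dRfxCas13d with the guide RNA EZH2g2. A site counted for a gene when its midpoint lay within the RefSeq span of the gene, on the strand of the gene. Among 20037 protein-coding genes these 10 held the most sites, 245 of the 1994 in the list, or 12.3% (exact binomial 95% interval 10.9 to 13.8, which covers counting error only). Because that count chose the genes, it is a description and supports nothing by itself. Position along the gene, sequence and the other Cas13 lists played no part in the choice. Spacing did in part, because overlapping sites were counted separately and so raised the count. With overlapping sites joined, the 58 sites of PLEC became 28 and the 19 of FYCO1 became 9. Whether the 10 genes would still hold the most joined sites was not examined. The strand of PLEC and CEP250 was taken from PTBP1 clusters.

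The study mapped contacts of tagged proteins with RNA by uSpyCLIP-seq. Stable Lenti-X 293T lines, human embryonic kidney cells used for packaging lentivirus, expressed the protein of interest and were exposed on ice to UV-C light at 400 mJ/cm2, which crosslinks protein to the RNA it touches. RNase I then fragmented the RNA, and fragments held by the protein were sequenced. dRfxCas13d and dPspCas13b are catalytically dead RNA-guided nucleases, which bind RNA without cutting it. Each was profiled with EZH2g1, with EZH2g2 or without guide, with 3 libraries per group. PTBP1 at 10000000, 100000, 10000 and 1000 cells and RBFOX2 at 10000000 cells had 2 libraries per group, and SpyCatcher 1.0 and 2.0 at 20 and 40 µg, for which the labels name no protein, had 1 library each. A single list of positions stands for each group, and 15 lists are used here. None carries a score or a count of reads, so the depth is unknown. The spread between libraries cannot be seen either, so differences are given without a test. EZH2, the gene the guides are named for, held 2 sites in the dRfxCas13d EZH2g2 list, 3 with dRfxCas13d EZH2g1 and 0 without guide. Positions give no expression level, so the cell line could not be set against marker genes.

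Coiled coils are bundles of α-helices that wind around each other, and they are written in the protein as a long run of heptad repeats rich in glutamate, lysine, glutamine, arginine and leucine. Such helices form the rods, tethers and scaffolds of the cytoskeleton, centrosome and Golgi. PLEC (plectin) is a plakin that crosslinks intermediate filaments. MYH9 and MYH14 encode heavy chains of nonmuscle myosin II, the motor of contractile actin bundles. CEP250 (C-NAP1) links the centrioles of a pair, PCNT (pericentrin) scaffolds the pericentriolar material, and CEP131 belongs to the centriolar satellites. NUMA1 gathers microtubules at the spindle pole. FYCO1 connects autophagosomes and late endosomes to kinesin, RRBP1 is a ribosome-binding protein of the endoplasmic reticulum, and GOLGA2 (GM130) is a golgin of the cis-Golgi.

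Sequence under a site could be read where a site reached the start of a gene, since only sequence around gene starts was given. Sites did so in FYCO1, CEP131, PCNT and MYH9. They are shown because these are the places where the sequence under a site could be read. For each, the 30 nt with the highest share of A and G within the covered sequence are printed 5′ to 3′ on the strand of the gene, with A and G in capitals. Sequences and coordinates are from RefSeq, GRCh38.p14.
FYCO1, chr3:45995855-45995884, minus strand: GAtGGGAGttGcAGGcctcAGccccGGGGA
CEP131, chr17:81222989-81223018, minus strand: AGGAAAGGcGGGccGGcGtGAcGGGctGGG
PCNT, chr21:46324145-46324174, plus strand: GcGGGGGAGGGAGtGtAAAtAGAGcGAAGG
MYH9, chr22:36387991-36388020, minus strand: ccGAGGGcGGGGcGGGAAGGcGGcGAGGAG
The stretch of PCNT held 25 purines in 30 nt, that of MYH9 24, that of CEP131 22 and that of FYCO1 18. Any sequence has a richest stretch, and in all windows of 100 nt around RefSeq starts its median was 66.7% A and G, which is above FYCO1 (60.0%) and below CEP131 (73.3%), MYH9 and PCNT (83.3%). The stretches of FYCO1, CEP131 and MYH9 lie wholly upstream of the RefSeq start, ending 31, 24 and 24 nt before it, and that of PCNT spans the start.

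The motif GGAG occurred in the covered sequence of all 4 genes, 3 times each in FYCO1 and PCNT, 2 times in CEP131 and 1 time in MYH9. The longer motif GGGAG, which contains GGAG, occurred 3, 2, 1 and 0 times in the same order. Both motifs were chosen after the sequences had been seen, so their shares are a description with no test. Over the whole dRfxCas13d EZH2g2 list, sites covered at least 50 of the 100 nt around 200 RefSeq starts. GGGAG was present in 54.0% of these windows (46.8 to 61.1), against 25.8% of all 34943 windows of the same length. Its reverse complement CTCCC was present in 15.0%, against 22.4% of all windows. GGGAG was present in 23.3% (11.8 to 38.6) of 43 windows under sites of dRfxCas13d without guide, in 5.56% (0.141 to 27.3) of 18 under dRfxCas13d EZH2g1 sites and in 37.0% (19.4 to 57.6) of 27 under dPspCas13b EZH2g2 sites. GGAG was present in 84.5% of the 200 windows and in 56.0% of all. The median share of A and G was 56.5% in the 200 windows and 51.0% in all windows. The excess was in G, with a median 11.0 percentage points above that of all windows, whereas median A was 15.5% against 19.0% and median G plus C 69.0% against 60.0%. The motif GGCGGG, which ranked high among words of its length in these windows, was present in 34.0% with dRfxCas13d EZH2g2, 34.9% without guide, 33.3% with EZH2g1 and 15.3% of all windows. Of the 10 genes, 8 are in the sequence table, and PLEC and CEP250 are not. A match shows only that these letters lie in the window.

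PLEC held 58 of the sites, MYH9 32, CEP250 24, CEP131 and MYH14 20 each, FYCO1, NUMA1 and PCNT 19 each, RRBP1 18 and GOLGA2 16. The genes next in order were TNKS1BP1, which encodes a tankyrase-binding protein, with 14 sites, MAP7D1 of the MAP7 family of microtubule-binding proteins with 13, and LMNB2 and TNRC18 with 12 each. The step from GOLGA2 to TNKS1BP1 is therefore 2 sites, and no gap in the list separates the 10 from the rest. Of all protein-coding genes, 1088 held at least 1 site of this list, or 5.43%. Of those, 767 (70.5%) held 1 site and 55 held 5 or more. Relative to span and with overlapping sites counted separately, PLEC was highest with 0.942 sites per kb. GOLGA2, the shortest of the genes at 20.2 kb, followed with 0.793 and CEP131 with 0.599, and PCNT, the longest at 121.6 kb, was lowest with 0.156. With overlapping sites joined the order turned: GOLGA2 was highest with 0.694 per kb, CEP131 had 0.509 and PLEC 0.455, and PLEC and MYH9 were equal in number with 28 each.

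The 10 genes held few or no sites in the other Cas13 lists. With dRfxCas13d EZH2g1 they held 0 of 966 sites, which allows up to 0.311% of the sites of the list. With dPspCas13b EZH2g2, the other protein with the same guide, they held 0 of 625 sites, which allows up to 0.480%. With dPspCas13b EZH2g1 they held 0 of 59, which allows up to 5.08%. These bounds are shares of sites and not of genes. Counted by gene, 0 of the 10 held a site in these lists. Of all genes, 4.18%, 2.57% and 0.274% did, in the same order. The lists without guide are longer. There dRfxCas13d had 2 of 2808 sites in the 10 genes, both in MYH9, where 9.75% of all genes held a site, and dPspCas13b had 3 of 4701, in MYH9 and CEP250, where 10.4% did. Per kb of span, dRfxCas13d without guide had 0.00271 sites in the 10 genes and 0.00218 in all genes. For dPspCas13b without guide the values were 0.00406 and 0.00365. In the other lists with a guide the 10 genes had 0 per kb, and all genes 0.000740 or less. Counts of 0 to 2 genes in 10 are near these backgrounds, so nothing is read from them beyond their contrast with the EZH2g2 list, which chose the genes.

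**Figure D1:**
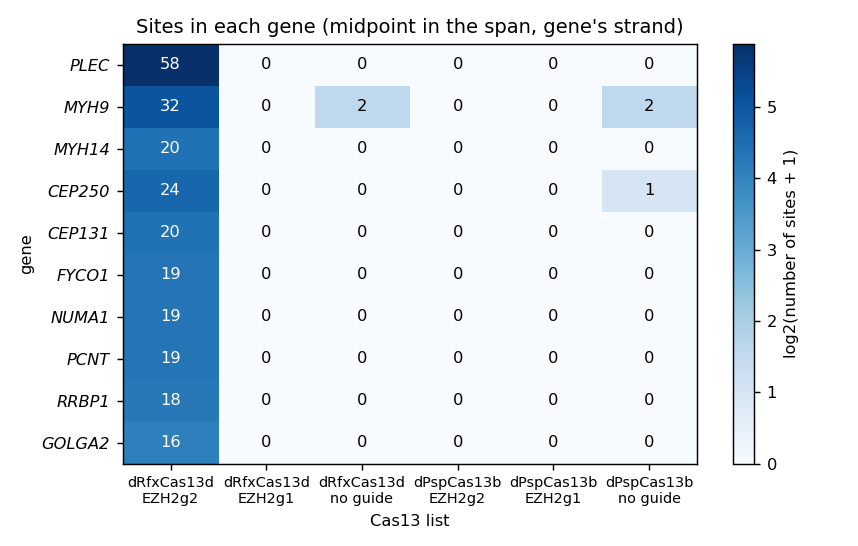
Number of sites in each of the 10 genes (rows) in the 6 Cas13 lists (columns); colour is log2(number of sites + 1) and the number is printed in each cell. Counts run from 16 to 58 in the dRfxCas13d EZH2g2 column, which was used to choose the genes, and from 0 to 2 in the other columns.

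The 5 sites in other Cas13 lists fell in 3 places. In MYH9 the sites of dRfxCas13d without guide lay at chr22:36312077-36312273 and chr22:36314121-36314320, 30895 and 32940 nt from the 3′ end by midpoint, and the nearest EZH2g2 sites were 5401 and 5200 nt away. In MYH9 the sites of dPspCas13b without guide lay at chr22:36282242-36282363 and chr22:36282433-36282560, 1022 and 1216 nt from the 3′ end by midpoint. Each of these overlapped dRfxCas13d EZH2g2 sites, 2 for the former and 1 for the latter. In CEP250 the site of dPspCas13b without guide, chr20:35511337-35511445, overlapped 1 dRfxCas13d EZH2g2 site. Of the 245 sites, 0 overlapped a site of the same protein without guide, with an exact upper bound of 1.49%, which includes the 1.43% (25 of 1749) of the other sites of the list. With dPspCas13b EZH2g2, 0 of the 245 overlapped, with the same bound, and 42 of the other sites did (2.40%, 1.74 to 3.23).

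Sites lay close together within the genes. The median distance between midpoints of neighbouring sites was 562 nt over the 10 genes, and 107 of 235 distances (45.5%) were under 500 nt. In the other genes of the list with more than 1 site the median was 1453 nt, and 206 of 628 distances (32.8%) were under 500 nt. A gene with more sites has shorter distances by arithmetic, so the 44 other genes of known strand with at least 5 sites are the nearer comparison (1 more had no known strand). Their median distances ran from 159 to 16462 nt with a median of 1123 nt, and those of the 10 genes ran from 232 nt in PLEC to 3656 nt in PCNT, inside that range. Many sites of the 10 genes overlapped each other in the deposited list. Joining overlapping sites took the 10 genes from 245 to 175 stretches, a loss of 28.6%. A gene with 1 site cannot lose any, so the loss is set beside that of the same 44 genes, which went from 312 to 264 (15.4%). Per gene the loss ran from 5.00% in MYH14 to 52.6% in FYCO1, with a median of 15.4%, and in the 44 genes from 0 to 50.0%, with a median of 10.6%. The 44 genes still hold fewer sites each, at most 14 against at least 16 in the 10 genes. Overlapping sites also add to the count that chose the 10. Shorter distances and a larger loss can therefore follow from the choice, and neither is read as a trait of these genes. Median site width was 198 nt in the 10 genes and 174 nt elsewhere.

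**Figure D2:**
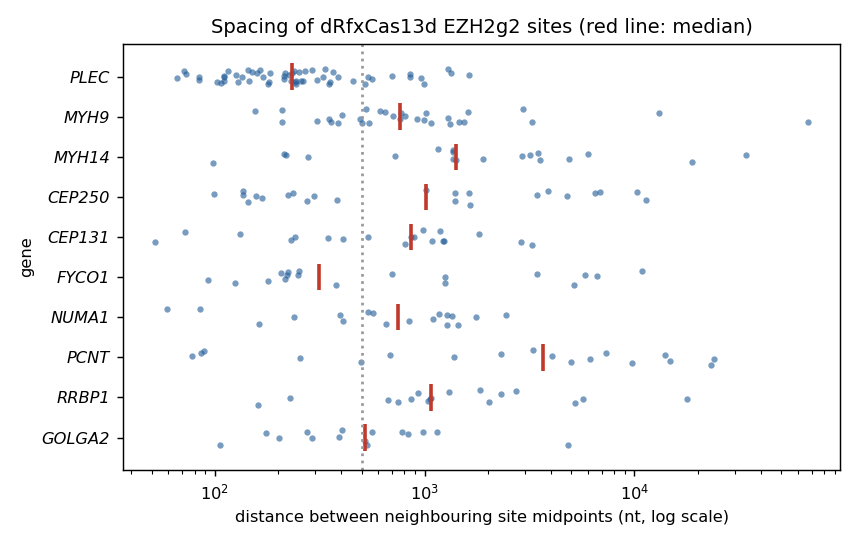
Distance in nt between midpoints of neighbouring dRfxCas13d EZH2g2 sites (x axis, log scale) for each gene (rows); each point is 1 pair of neighbours, the red line is the median of the gene and the dotted line marks 500 nt. PLEC has the shortest median, 232 nt, and PCNT the longest, 3656 nt.

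In the genes of filaments and motors, nearly all sites lay past the midpoint of the span, and they were packed most densely in PLEC. PLEC, on the minus strand of chromosome 8 from 143915153 to 143976745, had all of its 58 sites within 19761 nt of the 3′ end of a span of 61.6 kb. Of its 57 distances, 46 were under 500 nt and the longest was 1619 nt. The sites joined to 28 stretches that together covered 10.23 kb, 16.6% of the span, and the longest stretch joined 15 overlapping sites over 2950 nt. Within 100 nt of each other, 16 sites formed a tract of 3322 nt with its near edge 7376 nt from the 3′ end, and 12 sites formed a tract of 2168 nt with its near edge 695 nt from it. Of the 57 neighbouring pairs of PLEC sites, 30 were joined by overlap. The joined stretches were 365 nt wide on average, and the median gap between them was 147 nt.

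MYH9, chr22:36281280-36387967 on the minus strand, had 31 of 32 sites past the midpoint of its span. The exception had its midpoint 27 nt from the 5′ end, and 66885 nt without a site followed it. The densest tract held 5 overlapping sites in 1307 nt at chr22:36281547-36282853, with its near edge 267 nt from the 3′ end. MYH14, chr19:50203622-50310540 on the plus strand, had 19 of 20 sites past the midpoint, and 3 of them lay in a tract of 757 nt that ended 60 nt from the 3′ end. Its median distance was 1417 nt against 763 nt in MYH9, over spans of nearly equal length (106.9 and 106.7 kb). Both myosin genes thus shared a tract at the 3′ end and a spread of sites upstream of it. Such a tract was not particular to them, as NUMA1 had 3 sites in 504 nt with the near edge 219 nt from its 3′ end.

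Among the genes of centrosome and spindle, sites had the longest median distance in PCNT, and CEP250 and NUMA1 each held a long joined stretch. Distances under 500 nt were 11 of 23 in CEP250, 7 of 19 in CEP131, 6 of 18 in NUMA1 and 5 of 18 in PCNT. CEP250, chr20:35455165-35519280 on the plus strand, had 10 of its 24 sites joined in 2330 nt at chr20:35502476-35504805, ending 14475 nt from the 3′ end, and 0 sites in its last 2000 nt. PCNT, chr21:46324156-46445769 on the plus strand, had 19 sites that covered 2.93% of its span, with distances from 78 to 24042 nt. Its densest tract was 4 sites in 595 nt. CEP131, chr17:81189596-81222965 on the minus strand, had 17 of 20 sites past the midpoint and a densest tract of 4 sites in 585 nt. NUMA1, chr11:72002864-72080542 on the minus strand, had all 19 sites within 16066 nt of the 3′ end. It also held the widest site of the whole list, 1913 nt, inside a stretch of 3435 nt at chr11:72012883-72016317. CEP250-AS1, an antisense RNA gene, lies opposite 6 CEP250 sites, and IL18BP and NUMA1-AS1 lie opposite 7 NUMA1 sites each, but every site is listed on the strand of CEP250 or NUMA1. The protein-coding gene LOC128092249 lies on the same strand as PCNT over 1 PCNT site, which strand does not assign to either gene.

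The genes of membrane traffic differed in where their sites lay. FYCO1, chr3:45917903-45995824 on the minus strand, was the only one of the 10 with 0 sites past the midpoint of its span. Its 19 sites lay between 0.0400% and 47.8% of the way from the 5′ end, and 11 of them joined in 2498 nt at chr3:45966270-45968767, between 27057 and 29554 nt from the 5′ end. RRBP1, chr20:17613679-17682242 on the minus strand, had 17 of 18 sites past the midpoint with little packing, since 2 of its 17 distances were under 500 nt. GOLGA2, chr9:128255829-128276007 on the minus strand, had 14 of 16 sites past the midpoint. Its 16 sites covered 15.9% of its short span, and 4 of them formed a tract of 889 nt. Exons, introns and untranslated regions of these genes were not analysed here, so the tracts are placed by distance along the unspliced span only.

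Over all 10 genes the median site lay 82.2% of the way from the 5′ to the 3′ end, and 205 of 245 sites (83.7%) lay past the midpoint of the span. The same values for the other sites, placed 1685 times in genes of known strand, were 60.3% and 57.6%. Within 2000 nt of the 3′ end lay 13.1% of the sites of the 10 genes and 18.2% of the others. A fixed 2000 nt is a smaller part of a long span than of a short one. These 2 shares therefore do not show whether sites concentrate at the very end. Sites at gene starts were a smaller share of all sites in the 10 genes. Within 300 nt of the 5′ end lay 4 of 245 sites (1.63%), 1 each in PCNT, MYH9, FYCO1 and CEP250, against 226 of 1685 placements of other sites (13.4%). These 4 had midpoints 26, 27, 29 and 290 nt from the start. CEP131 had a further site over its start, chr17:81222900-81223049, whose midpoint fell outside the span and which the rule does not count. A gene with 16 or more sites can have few of them at its start in any case, so the share per site is not a share per gene. By gene, 4 of the 10 had such a site, and the share among other genes was not counted.

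**Figure D3:**
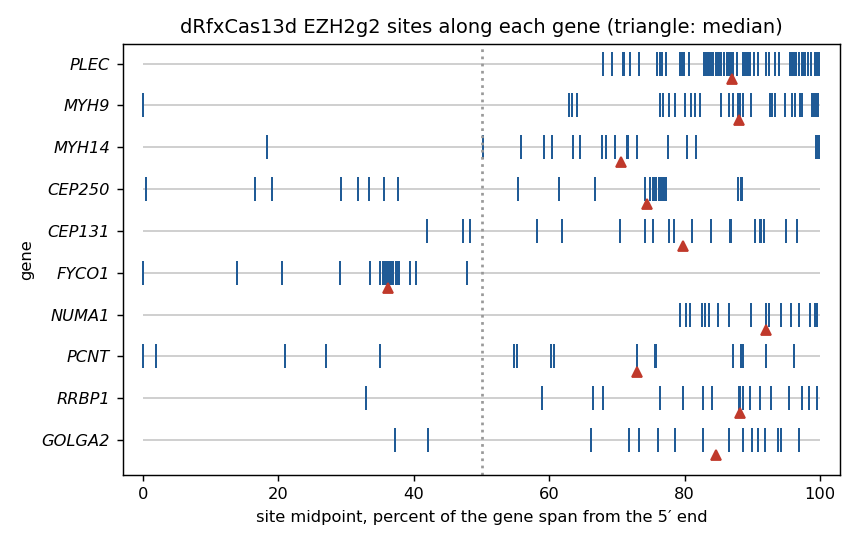
Position of every dRfxCas13d EZH2g2 site along its gene, as percent of the span from the 5′ end (x axis), for each gene (rows); each tick is 1 site midpoint, the triangle is the median and the dotted line is the midpoint of the span. All 58 PLEC sites and all 19 NUMA1 sites lie to the right of the dotted line, and all 19 FYCO1 sites lie to its left.

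The RNA-binding proteins of the study gave a different order of the genes. PTBP1, a splicing regulator that binds pyrimidine-rich RNA, had 888 clusters in 9 of the 10 genes at 10000000 cells, where 60.3% of all genes had a cluster. It had 173 in MYH9, 168 in PCNT, 162 in NUMA1 and 158 in FYCO1. PLEC, first in the EZH2g2 list, had 35 PTBP1 clusters, and CEP131 had 0 in this and each of the other 8 lists of PTBP1, RBFOX2 and SpyCatcher. Per kb of span the 10 genes had 1.20 PTBP1 clusters and all protein-coding genes 0.710. At 100000 cells the genes had 637 clusters in 9 genes, where 56.2% of all genes had a cluster. At 10000 cells they had 116 in 8 genes against 46.2%, and at 1000 cells 11 in 6 genes against 31.0%. Per kb, the value for the 10 genes was above that of all genes at 100000 cells (0.862 against 0.566) and below it at 10000 (0.157 against 0.183).

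RBFOX2, a splicing regulator that binds GCAUG motifs, had 38 clusters in 8 of the 10 genes, where 39.1% of all genes had a cluster, and 22 of the 38 were in MYH9. Per kb that was 0.0514 in the 10 genes and 0.0873 in all genes. With SpyCatcher 1.0, 3 of the genes had 4 clusters at 20 µg and 4 genes had 6 at 40 µg, where 22.7% and 23.7% of all genes had one. With SpyCatcher 2.0, 7 genes had 15 clusters at 20 µg and 1 gene, GOLGA2, had 1 cluster at 40 µg, where 27.0% and 28.2% of all genes had one.

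Overlap of EZH2g2 sites with PTBP1 clusters differed between the genes and with distance from the 3′ end. At 10000000 cells, 34 of the 245 sites (13.9%, 9.81 to 18.8) overlapped a PTBP1 cluster, against 282 of the 1749 other sites (16.1%, 14.4 to 17.9). Of the 32 sites within 2000 nt of a 3′ end, 17 did (53.1%, 34.7 to 70.9), 5 each in PLEC and MYH9, 3 each in MYH14 and NUMA1 and 1 in GOLGA2. Of the 213 farther sites, 17 did (7.98%, 4.72 to 12.5), 8 of them in MYH9. CEP250 and PCNT overlapped PTBP1 only farther from the end, at 1 and 3 sites, and CEP131, FYCO1 and RRBP1 at none. Among other sites of the list the same shares were 27.4% (22.5 to 32.7) and 13.9% (12.1 to 15.8). All 5 sites of the MYH9 tract, all 3 of the MYH14 tract and all 3 of the NUMA1 sites at chr11:72003083-72003586 overlapped a cluster. In MYH9 52 of 173 PTBP1 clusters lay inside the sites, a density of 6.82 per kb against 1.22 outside, and in MYH14 27 of 75 did, 6.37 per kb against 0.467. PLEC had 0.684 per kb inside and 0.545 outside. Density inside was the lower one in NUMA1 (1.28 against 2.16), PCNT (0.561 against 1.41) and GOLGA2 (0.312 against 1.12), and 0 of 158 clusters in FYCO1, 0 of 51 in CEP250 and 0 of 46 in RRBP1 lay inside sites. In all, 97 of 888 clusters (10.9%) lay inside sites, which covered 6.93% of the spans. RBFOX2 overlapped 6 of the 32 sites near a 3′ end (18.8%, 7.21 to 36.4), 4 of them in MYH9, and 0 of the 213 others, while among other sites of the list it overlapped 6.84% (4.28 to 10.3) near a 3′ end and 3.48% (2.58 to 4.59) farther away. Sites of 1 gene are not independent of each other, and the intervals treat them as if they were.

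The other coiled-coil genes of the cell were examined through a list of 90 drawn up from textbook knowledge with earlier results of these data known, none of which is among the 10. In the dRfxCas13d EZH2g2 list 29 of the 90 held a site (32.2%, 22.8 to 42.9), against 5.43% of all genes, and 16 held at least 2, against 1.60% of all genes. With dRfxCas13d EZH2g1 4 held a site (4.44%, 1.22 to 11.0), near the 4.18% of all genes. With dPspCas13b EZH2g2 7 did (7.78%, 3.18 to 15.4) against 2.57%, and with dPspCas13b EZH2g1 1 did (1.11%) against 0.274%. The lists without guide also reached many of them, 20 with dRfxCas13d (22.2%, 14.1 to 32.2, against 9.75%) and 23 with dPspCas13b (25.6%, 16.9 to 35.8, against 10.4%). The share in the dRfxCas13d EZH2g2 list was thus 5.9 times that of all genes, and that in the list of the same protein without guide 2.3 times. With dRfxCas13d EZH2g1 it was 1.1 times. For dPspCas13b it was 2.5 times without guide, 3.0 times with EZH2g2 and, from 1 gene, 4.0 times with EZH2g1. These genes also stood out in RNA bound by PTBP1, as 84 of the 90 had a cluster at 10000000 cells and their median was 102 clusters against 4 over all genes. Among genes with such a cluster, 34.5% of the coiled-coil genes and 8.67% of all genes held an EZH2g2 site. The part that gene length and RNA abundance have in these shares was not tested.

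**Figure D4:**
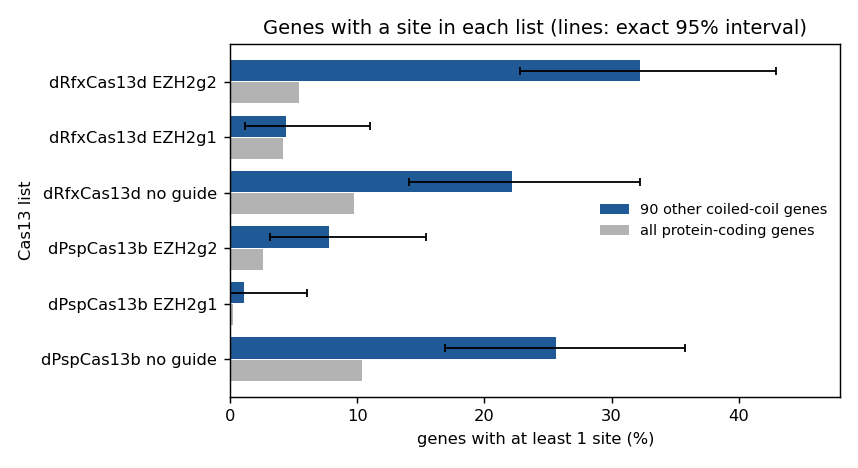
Percent of genes with at least 1 site (x axis) in each of the 6 Cas13 lists (rows), for the 90 other coiled-coil genes (blue, with exact 95% intervals) and for all 20037 protein-coding genes (grey). The blue bar is longest for dRfxCas13d EZH2g2, at 32.2% against 5.43%, and close to the grey bar for dRfxCas13d EZH2g1, at 4.44% against 4.18%.

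By class, 8 of 18 centrosome genes held an EZH2g2 site, 5 of 15 genes of plakins, spectrins and intermediate filaments, 4 of 10 of myosins and tropomyosins, 4 of 11 of golgins and tethers, 4 of 17 of endosome, motor and adaptor genes, 2 of 13 of nuclear genes and 2 of 6 of kinases and formins. Those with many sites included LMNB2, a B-type lamin, with 12, the dynein adaptor BICD2 with 10, CCDC88C with 7, NINL, ODF2, SMC1A and TPM4 with 5 each, CDK5RAP2 with 4 and CALD1 with 3. NINL, ODF2 and CDK5RAP2 encode centrosomal proteins, SMC1A a cohesin subunit, TPM4 a tropomyosin and CALD1 caldesmon. BICD2, CCDC88C, NINL and ODF2 had 0 sites in each of the other 5 Cas13 lists, as did 8 of the 10 genes chosen by their count. Other named genes differed. SMC1A had 15 sites of dPspCas13b without guide, LMNB2 3 and TPM4 1. With dRfxCas13d without guide CALD1 had 2 sites, and CDK5RAP2 and SMC1A 1 each. Each of these 5 lists had a site in only 0.274% to 10.4% of all genes. A count of 0 is thus the usual case there, and nothing is read from it. MYH10, the paralog of MYH9 and MYH14, held 2 EZH2g2 sites and 378 PTBP1 clusters at 10000000 cells.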

How the data were processed

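The deposited files are lists of positions (chromosome, start, end and strand), 1 per group, with no measured value. Per the labels, RNA was crosslinked in stable Lenti-X 293T lines and digested with RNase I. Trim Galore 0.0.6 and STAR 2.7.9a are named, with the build hg38, in the submitters' processing notes. For the caller, thresholds, duplicate removal and pooling, the method is not given in the sources used here. Starts are counted from 0 in the files and from 1 here. Lists of another guide and some values that the naming rule covers are not reported here, and samples without crosslinking or with a non-targeting guide were not analysed here.

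Sites were assigned by midpoint and strand to RefSeq gene spans (GRCh38.p14, the assembly of hg38). Strand came from the RefSeq promoter table for 15843 genes, from PTBP1 clusters (at least 3, at least 90% on 1 strand) for 1747, PLEC and CEP250 among them, and was unknown for 2447, whose sites were counted on both strands. Overlap means at least 1 nt on the same strand. Intervals are Clopper-Pearson 95% intervals and cover counting error only, and the share allowed by a count of 0 is 3 sites of the list. Genes, wider list and motifs were chosen with earlier results of these data known. Named are the 10 genes, the next 5 by count, and the 10 genes of the wider list with most sites (ties in alphabetical order); MYH10 was named after its values were seen. Python 3.11.15, numpy 2.4.6, pandas 2.3.3, scipy 1.17.1 and matplotlib 3.10.9 were used. The overlap and assignment code was tested on simulated data, where 0 of 3600 queries went wrong.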

Additional observations from a re-analysis of the deposited data

How the results depend on the processing

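Of 110 values recomputed under another setting, 100 moved by less than their interval or less than 1.5 times, and 10 did not. Whether a comparison with other genes kept its direction was not part of this count. Joining overlapping sites left 175 in the 10 genes, with 28 in PLEC, 14 in CEP250 and 9 in FYCO1. The median gap between joined sites was 850 nt against a median midpoint distance of 562 nt; it was 147 nt in PLEC, 283 nt in GOLGA2, 3221 nt in CEP250 and 4098 nt in FYCO1. Position measured as the share of sites within 2000 nt of the 3′ end was 13.1%, below the 18.2% of the other sites. The median of 82.2%, another quantity, was above the 60.3% of the other sites. Asking for at least 2 sites left 16 of the 29 coiled-coil genes. Any overlap with the span gave 246 sites, the added one in CEP131. GGGAG was present in 55.6% of 178 windows covered by at least 80 nt, a setting chosen after seeing the data, as was the restriction to genes with a PTBP1 cluster.

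No paired analysis was possible because each group has 1 list and no test was made. The planned analysis of protein composition and of sequence under all sites was not run, since no genome or protein table was given. Depth is unknown, so the lack of a site does not show the lack of contact.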

Other observations

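GCTGCT was present in 13 of 27 windows (48.1%) under dPspCas13b EZH2g2 sites, in 26 of 200 under dRfxCas13d EZH2g2 sites and in 6.92% of all 34943 windows. The motif was picked for dPspCas13b EZH2g2 from 4096 possible words on these values, so the shares are a description with no test.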
